A study of Homo sapiens with 12 samples.

Results

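The DEAD-box and DEAH-box RNA helicases described here are those whose human gene symbols start with DDX or DHX, a choice by name that leaves out relatives with other symbols, such as the EIF4A genes. They were taken by symbol from the array's gene table, over probe sets with 1 symbol, and where a gene had several probe sets the one with the highest mean over all arrays was used, so measured levels entered the choice of probe set but no group difference did. This gave 50 of the 18404 genes tested, 34 with a DDX and 16 with a DHX symbol, out of 54 protein-coding DDX and DHX symbols in the reference gene table. The level of DDX3Y, a Y-linked gene, is not shown, so that values are given for 49 members. DDX18, DDX47, DDX39B and DDX11 are not analysed here. By role, 14 members were listed under ribosome biogenesis in the nucleolus. The other 36 were not on that list, and 4 of them had no role listed.

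The study measured mRNA in 2 established head and neck squamous cell carcinoma lines, FaDU and JHU-029, after lentiviral knockdown of TP63, the gene of the transcription factor p63. The 4 groups had 3 single-colour Affymetrix Human Gene arrays each: FaDU with an shRNA against TP63 (shTP63), FaDU with a control vector (shControl), JHU-029 with shTP63 and JHU-029 with shControl. The titles of 2 of the 3 FaDU shControl arrays hold the word new, and no other title does. The labels do not say whether these 2 arrays were prepared apart. Such a difference would lie on the control side only in FaDU and would be partly mixed with the knockdown effect there. It would also enter the comparison of the lines under control shRNA. All cells had been transduced, and RNA was taken 72 hours after knockdown. The labels name a single shTP63 and a single control, so an effect of the shRNA other than on TP63 cannot be told apart from the knockdown. The level of TP63, which would check the labels, is not analysed here. The labels do not say whether replicates came from separate cultures, and p-values then measure only the spread between these samples.

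Helicases of these families couple ATP binding and hydrolysis to the local unwinding of short RNA duplexes or to the removal of proteins from RNA. DEAD-box proteins usually act non-processively on a short helix and remodel RNA-protein complexes, whereas DEAH-box proteins move along a strand and are often switched on by partner proteins with a G-patch motif. Growing cells use many of them to fold and trim ribosomal RNA precursors in the nucleolus, others to drive the steps of the spliceosome, to release mRNA at the nuclear pore, to start or repress translation, and to sense viral RNA.

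Array medians lay between 6.46 and 6.56 log2 intensity, and the correlation over all probe sets was 0.993 to 0.997 within groups and 0.94 to 0.951 between the lines. The labelled cell type was checked with markers fixed for squamous epithelium: 0 of 8 measured markers had a mean over all 12 arrays under the median of all probe sets. Within groups, PKP1 read from 6.29 to 6.58 in FaDU shTP63 arrays, where replicates 1 and 2 lay under the lowest array median, 6.46. Of the 8 squamous markers 7 fell in FaDU and 1 in JHU-029 with shTP63, where 14.2% and 1.35% of all genes fell. Their summed linear intensity ran from 8860 to 9350 in FaDU shTP63 arrays, against 16300 to 16400 in FaDU shControl arrays. In JHU-029 the sum ran from 29500 to 31800 in shTP63 arrays, against 32300 to 34700 in shControl arrays. By their mean over all arrays, 6 of 7 fibroblast, 6 of 6 immune and 5 of 6 endothelial markers lay under the median of all probe sets. Within groups, the immune marker CD14 lay above the array medians in FaDU. It read from 6.99 to 7.34 in FaDU shTP63 and from 6.57 to 6.72 in FaDU shControl arrays. Summed immune markers ran from 326 to 356 in FaDU shTP63 arrays and from 271 to 286 in FaDU shControl arrays, and summed endothelial markers from 956 to 1050 in FaDU shTP63 arrays and from 580 to 605 in FaDU shControl arrays. Of the endothelial markers 3 lay above 0 and 3 below 0 in their FaDU difference, and 2 of 6 rose: CDH5, the brightest, with mean log2 intensities of 9.69 in FaDU shTP63 and 8.69 in FaDU shControl arrays, and ESAM, with 6.22 in FaDU shTP63 and 5.92 in FaDU shControl arrays. Of the 6 immune markers 2 rose in FaDU, LYZ and CD14, where 12.4% of all genes rose. The part of these shifts in the results on helicases was not tested.

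In FaDU cells the helicases moved mainly downwards after TP63 knockdown. Of 50 members 19 fell (38%), 2 rose and 29 did not pass the threshold, an adjusted p of 0.05 in limma's moderated test over all genes. Over all 18404 genes 26.6% passed, 14.2% lower and 12.4% higher. The median log2 difference, shTP63 minus shControl, was -0.10 over the members and 0.02 over all genes. Ribosome biogenesis held 9 that fell among its 14 genes, and the other 36 members held 10 that fell and the 2 that rose. The differences were small: DDX46, with the largest fall, was lower by 1.55-fold. In bulk RNA, fewer cells of a type and less RNA per cell cannot be told apart.

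**Figure D1:**
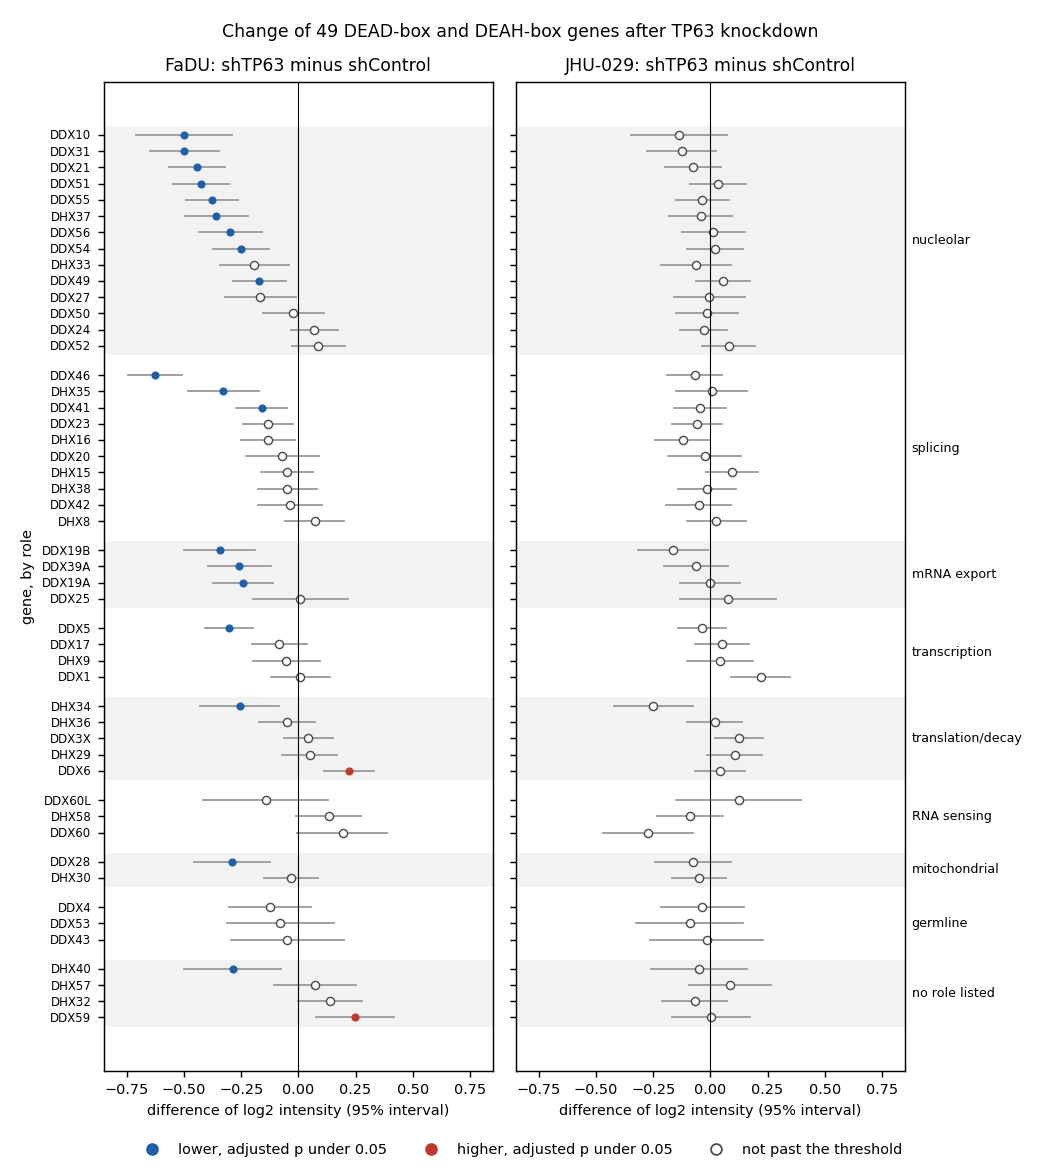
Difference of log2 intensity, shTP63 minus shControl, with its 95% interval for 49 helicase genes grouped by role, in FaDU (left) and JHU-029 (right). Filled points passed an adjusted p of 0.05. In FaDU 9 nucleolar members lie left of 0 as filled points, and in JHU-029 no point is filled.

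Among the nucleolar members, DDX21 helps RNA polymerase I transcription and early ribosomal RNA processing. Its log2 intensity was 11.00, 10.98 and 11.12 in the FaDU shTP63 arrays, against 11.47, 11.50 and 11.45 in the FaDU shControl arrays. The groups did not overlap and the fall was 0.44 (SE 0.0568, adjusted p 9.69e-05), a 1.36-fold difference. DDX10, a component of the small subunit processome, read 8.07, 8.52 and 8.37 in FaDU shTP63 and 8.92, 8.72 and 8.82 in FaDU shControl arrays. The knockdown arrays of DDX10 spread widely, replicate 1 being lowest, yet all 3 lay under the controls (log2 difference -0.50, SE 0.0959, adjusted p 0.00183). DDX31, whose yeast counterpart works on precursors of the large subunit, read 8.72, 8.64 and 8.86 in FaDU shTP63 and 9.36, 9.19 and 9.16 in FaDU shControl arrays. Again all knockdown arrays were lower (log2 difference -0.50, SE 0.0692, adjusted p 0.000178).

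DDX51, which acts in the maturation of the 3′ end of large subunit ribosomal RNA, had log2 intensities of 7.42, 7.51 and 7.44 in FaDU shTP63 arrays, against 7.90, 7.89 and 7.87 in FaDU shControl arrays. DDX55, a factor of the large subunit precursor, had 8.76, 8.81 and 8.82 in FaDU shTP63 and 9.19, 9.11 and 9.22 in FaDU shControl arrays. Both sets of controls were tight and stood clear of the knockdown arrays, with log2 differences of -0.43 (SE 0.0562, adjusted p 0.000117) for DDX51 and -0.38 (SE 0.0526, adjusted p 0.000184) for DDX55. DHX37, the DEAH-box enzyme that releases the U3 small nucleolar RNA from the small subunit precursor, read 8.14, 7.99 and 8.04 in FaDU shTP63 and 8.37, 8.41 and 8.47 in FaDU shControl arrays. It fell by 0.36 (SE 0.0632, adjusted p 0.000987) without overlap.

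DDX56 and DDX54, both large subunit factors, and DDX49, which acts on the small subunit, fell by less. DDX56 read 10.46, 10.49 and 10.46 in FaDU shTP63 and 10.64, 10.74 and 10.91 in FaDU shControl arrays (log2 difference -0.30, adjusted p 0.00367). DDX54 read 9.80, 9.74 and 9.71 in FaDU shTP63 and 10.00, 9.93 and 10.07 in FaDU shControl arrays (log2 difference -0.25, adjusted p 0.00483). In both genes the groups stood apart, DDX56 by a margin set by its lowest control. DDX49 read 8.48, 8.52 and 8.60 in FaDU shTP63 and 8.74, 8.65 and 8.72 in FaDU shControl arrays, a log2 difference of -0.17 with an adjusted p of 0.0355. Its groups were separated narrowly, and the call was lost, with adjusted p up to 0.111, when any of 5 arrays was left out: replicate 1 or 2 of FaDU shTP63, replicate 1 or 3 of FaDU shControl, or JHU-029 shControl replicate 2.

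The other 5 nucleolar members did not pass the threshold. DHX33, an activator of ribosomal RNA transcription, had a log2 difference of -0.19 (adjusted p 0.059), and its groups did not overlap. DDX27, a large subunit factor, had -0.17 (adjusted p 0.11), with overlapping groups. DDX50, the close paralogue of DDX21, read 9.28, 9.25 and 9.24 in FaDU shTP63 and 9.37, 9.22 and 9.25 in FaDU shControl arrays, overlapping, with a log2 difference of -0.02 (95% interval -0.16 to 0.11). DDX24 and DDX52 had differences of 0.07 (95% interval -0.03 to 0.17) and 0.09 (95% interval -0.03 to 0.20). In all, the 3 knockdown arrays lay under the 3 controls for 10 of the 14 nucleolar members and above them for 1, DDX24, where 18% of all genes were apart downwards and 18.1% upwards. The median over the 14 was -0.27, against 0.02 over all genes.

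**Figure D2:**
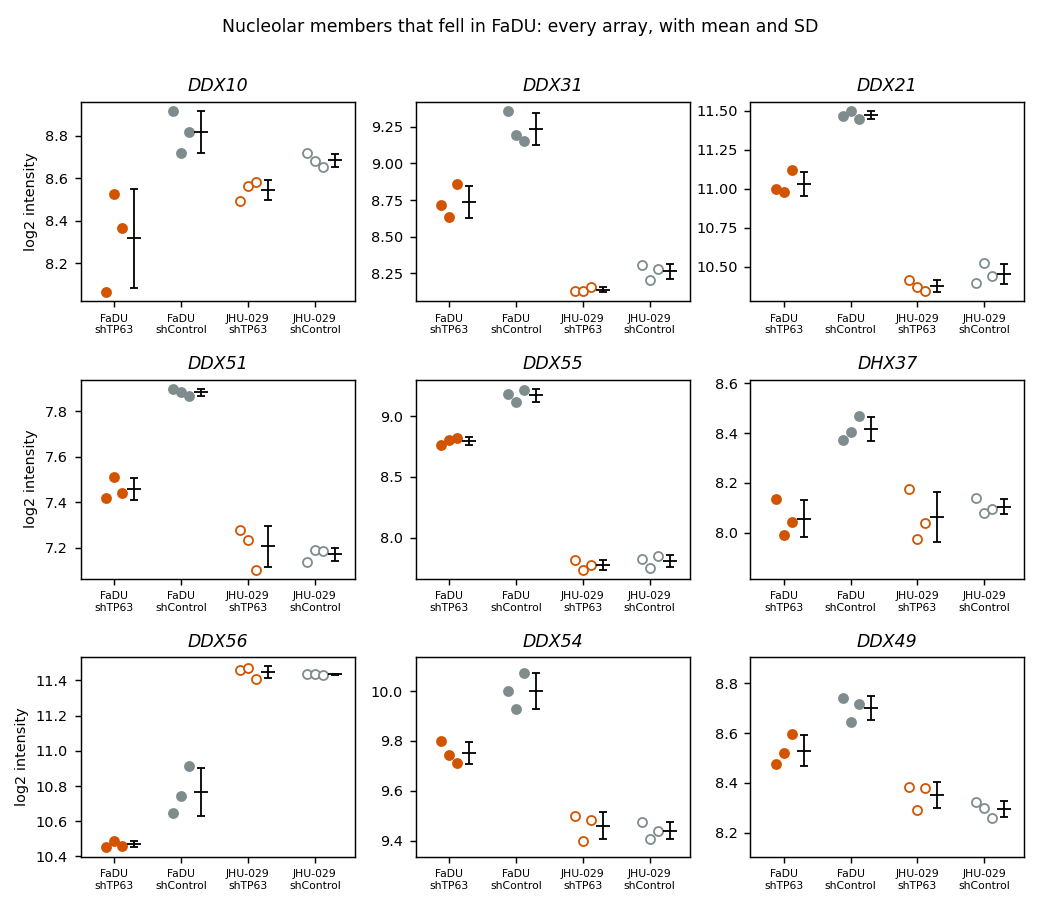
Log2 intensity of the 9 nucleolar helicase genes that fell in FaDU, every array as a point, with the mean and SD of 3 arrays beside each group. FaDU shTP63 points lie under all FaDU shControl points in each panel, for DDX21 between 10.98 and 11.12 against 11.45 to 11.50, while JHU-029 groups overlap for DDX21 and lie close together.

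The helicases of the nucleolus work beside non-helicase factors of the small subunit processome and the large subunit precursor. Of 34 such factors measured, 32 fell in FaDU and 0 rose, where 14.2% of all genes fell and 12.4% rose. Their median log2 difference was -0.39. RRS1, a large subunit assembly factor, had 8.76 ± 0.0614 in FaDU shTP63 and 9.70 ± 0.0573 in FaDU shControl arrays (mean ± SD, n = 3 each), a log2 difference of -0.95 (adjusted p 5.33e-07). RRP12, which aids export of subunits, differed by -0.69 (adjusted p 5.93e-05), and NOL6, a processome scaffold, by -0.67 (adjusted p 1.49e-05). The share that fell was 94.1% of these factors and 64.3% of the nucleolar helicases. In JHU-029 0 of these 34 factors passed, where 3.15% of all genes passed and 1.35% passed as lower, and the median of the factors was -0.05. An unadjusted p under 0.05 in limma's test was seen for 3 of the 34, and for 2727 of all 18404 genes. The list was drawn up with earlier results of these arrays known, and its counts are a description.

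**Figure D3:**
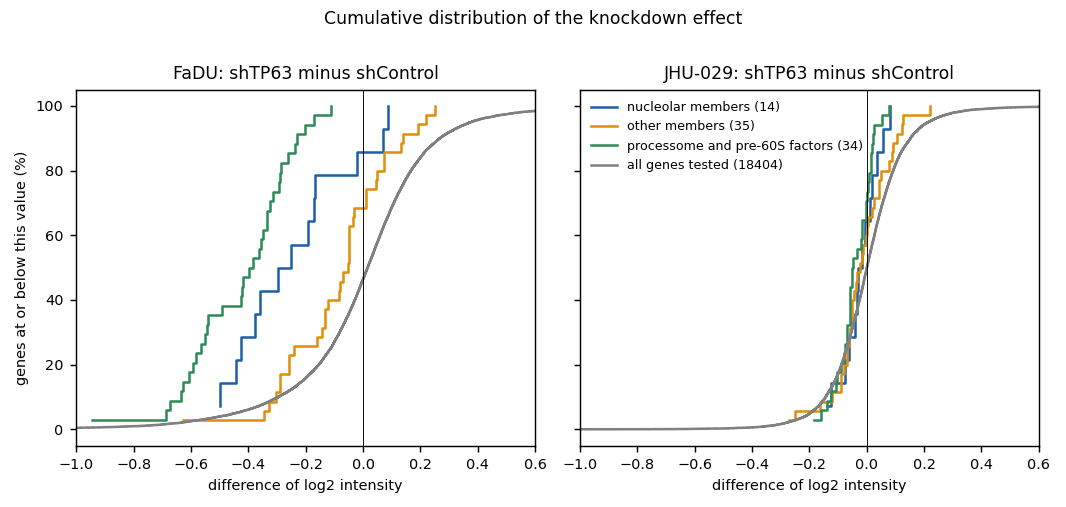
Cumulative share of genes (%) at or below each log2 difference, shTP63 minus shControl, for 14 nucleolar helicases, 35 other helicases with values shown, 34 processome and large subunit factors and all 18404 genes, in FaDU (left) and JHU-029 (right). In FaDU the factors lie farthest left, the nucleolar helicases next, and in JHU-029 the curves lie close to 0.

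RefSeq promoter windows of build GRCh38.p14, each 300 bases from 250 before to 50 after a gene's start, were found for 45 of the 49 members. They were searched on both strands for CACGTG, the palindromic E-box core that basic helix-loop-helix factors recognise, a motif chosen with the changes in FaDU known. It stood in a window of 8 of the 18 fallen members that had a window (44.4%) and of 2 of the 27 others (7.41%). Among all genes tested it stood in 1557 of 14228 (10.9%), and among all genes that fell in FaDU in 346 of 2141 (16.2%). Counted by window instead of by gene, 30.8% of the windows of fallen members, 6.06% of those of the other members and 7.26% of all promoter windows held it. Fallen members had 1.44 windows per gene and the others 1.22. The nucleolar members with the motif were DDX21, DDX31, DDX54 and DHX37, 4 of 11 with a window (36.4%), and the other fallen members with it were DDX5, DHX34, DHX35 and DHX40. The windows of DDX21 (chr10:68956397-68956696, plus strand), DDX31 (chr9:132669934-132670233, minus strand), DDX54 (chr12:113185429-113185728, minus strand), DHX37 (chr12:124989082-124989381, minus strand) and DDX5 (chr17:64506589-64506888, minus strand) are printed with the motif in capitals: the first 4 are all the nucleolar members that held it, and DDX5 stands as 1 example of the other 4 fallen members, whose remaining windows are not printed. Each runs 5′ to 3′ in the direction of the gene. A match describes the letters of a window and shows no binding.
DDX21: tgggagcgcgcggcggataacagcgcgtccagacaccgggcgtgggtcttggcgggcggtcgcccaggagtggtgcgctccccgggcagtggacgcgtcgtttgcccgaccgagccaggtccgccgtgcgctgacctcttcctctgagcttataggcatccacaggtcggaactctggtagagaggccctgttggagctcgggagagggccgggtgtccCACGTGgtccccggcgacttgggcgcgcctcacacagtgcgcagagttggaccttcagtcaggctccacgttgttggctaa
DDX31: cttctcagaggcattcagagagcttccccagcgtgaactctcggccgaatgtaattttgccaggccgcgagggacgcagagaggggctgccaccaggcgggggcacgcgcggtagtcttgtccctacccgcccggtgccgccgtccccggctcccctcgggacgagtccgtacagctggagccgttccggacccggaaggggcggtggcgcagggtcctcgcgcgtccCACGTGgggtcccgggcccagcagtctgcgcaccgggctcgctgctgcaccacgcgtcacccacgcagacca
DDX54: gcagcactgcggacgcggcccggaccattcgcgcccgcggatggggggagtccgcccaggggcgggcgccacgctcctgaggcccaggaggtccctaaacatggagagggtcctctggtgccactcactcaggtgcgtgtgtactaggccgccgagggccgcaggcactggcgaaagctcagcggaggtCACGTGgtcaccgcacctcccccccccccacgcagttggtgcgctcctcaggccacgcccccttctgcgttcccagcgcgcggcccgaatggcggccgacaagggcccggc
DHX37: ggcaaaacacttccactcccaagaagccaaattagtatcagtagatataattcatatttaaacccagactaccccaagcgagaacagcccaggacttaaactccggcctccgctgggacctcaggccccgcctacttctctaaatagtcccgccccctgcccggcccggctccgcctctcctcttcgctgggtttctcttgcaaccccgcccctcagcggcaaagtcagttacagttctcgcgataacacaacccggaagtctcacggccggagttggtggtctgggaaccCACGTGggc
DDX5: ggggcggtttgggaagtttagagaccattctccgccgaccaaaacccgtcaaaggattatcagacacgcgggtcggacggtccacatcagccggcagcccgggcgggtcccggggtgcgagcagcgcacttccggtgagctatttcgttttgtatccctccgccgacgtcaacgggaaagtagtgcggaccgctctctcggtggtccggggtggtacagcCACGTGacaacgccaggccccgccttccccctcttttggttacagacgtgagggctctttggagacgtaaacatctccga

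Among the 10 splicing helicases 3 fell in FaDU and 0 rose, where 14.2% of all genes fell and 12.4% rose. Their median log2 difference was -0.10. The fall of DDX46 exceeded that of every other member. DDX46 is the counterpart of yeast Prp5, which prepares the U2 particle to bind the branch site. It read 9.53, 9.55 and 9.64 in FaDU shTP63 arrays, against 10.28, 10.15 and 10.18 in FaDU shControl arrays, and 9.54, 9.59 and 9.53 in JHU-029 shTP63 against 9.65, 9.62 and 9.59 in JHU-029 shControl arrays. In FaDU the groups were far apart (log2 difference -0.63, 95% interval -0.75 to -0.51, adjusted p 4.5e-06), and the FaDU knockdown arrays came down to the range of the JHU-029 arrays.

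DHX35, a DEAH-box protein found in the catalytic spliceosome, read 7.66, 7.64 and 7.73 in FaDU shTP63 and 7.90, 7.95 and 8.17 in FaDU shControl arrays. It fell by 0.33 (SE 0.0719, adjusted p 0.00433), and control replicate 3 stood above the other two. DDX41, also a spliceosome component, read 9.85, 9.86 and 9.83 in FaDU shTP63 and 9.98, 9.97 and 10.08 in FaDU shControl arrays, a log2 difference of -0.16 (adjusted p 0.0366). Its groups did not overlap, but the call was lost, with adjusted p up to 0.125, without any of 7 arrays: each FaDU shTP63 array, replicate 3 of FaDU shControl, JHU-029 shTP63 replicate 2 or 3, or JHU-029 shControl replicate 1.

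The other 7 splicing members did not pass the threshold in FaDU. DDX23, the helicase that lets the U5-containing tri-snRNP join, had a log2 difference of -0.13 (adjusted p 0.0708), and DHX16, which activates the spliceosome, had -0.13 (adjusted p 0.0982). In both, all knockdown arrays lay under the controls. DHX38, which remodels the spliceosome between its catalytic steps, had -0.05 (95% interval -0.18 to 0.08), and DHX8, which releases the spliced mRNA, had 0.07 (95% interval -0.06 to 0.20). DHX15, which takes the spliceosome apart and also serves ribosome assembly, read 10.40, 10.38 and 10.36 in FaDU shTP63 and 10.44, 10.38 and 10.47 in FaDU shControl arrays, overlapping (log2 difference -0.05, 95% interval -0.16 to 0.06). DDX42, a partner of the SF3B complex, and DDX20, of the SMN complex, had -0.04 and -0.07.

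G-patch proteins switch on DEAH-box helicases such as DHX15. Of 21 measured, 4 fell (19%) and 2 rose (9.52%) in FaDU, shares near the 14.2% and 12.4% of all genes. GPATCH4, a nucleolar G-patch protein, had 9.03 ± 0.0801 in FaDU shTP63 and 9.80 ± 0.0674 in FaDU shControl arrays (mean ± SD, n = 3 each), a log2 difference of -0.77 (adjusted p 2.58e-06). CHERP, a spliceosome-associated protein, differed by -0.58 (adjusted p 3.05e-05) and SUGP2 by -0.46 (adjusted p 0.00149). RBM5, a splicing regulator, and GPATCH11 were higher by 0.28 (adjusted p 0.00221) and 0.36 (adjusted p 0.00194). CHERP was the only gene of the 5 companion lists that passed the threshold in JHU-029, with a log2 difference of -0.44 (adjusted p 0.0031).

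In mRNA export 3 of 4 members fell in FaDU, where 14.2% of all genes fell. DDX19B and DDX19A, close paralogues on chromosome 16 that free mRNA from export factors at the nuclear pore, may share probe signal, which was not tested. DDX19B read 10.26, 10.36 and 10.28 in FaDU shTP63 and 10.68, 10.54 and 10.70 in FaDU shControl arrays (log2 difference -0.34, adjusted p 0.00281). DDX19A read 9.51, 9.54 and 9.59 in FaDU shTP63 and 9.78, 9.78 and 9.81 in FaDU shControl arrays (log2 difference -0.24, adjusted p 0.00976). Both pairs of groups were apart. A second, dimmer probe set of DDX19A gave -0.35 with an adjusted p of 0.0609 when every probe set was tested, and the DDX19A call was lost without the 2 FaDU control arrays titled as new (adjusted p 0.0694). DDX39A, which loads export factors onto mRNA, read 9.56, 9.58 and 9.64 in FaDU shTP63 and 9.81, 9.80 and 9.95 in FaDU shControl arrays, a fall of 0.26 (adjusted p 0.00907) without overlap. DDX25, a testis helicase on a dim probe set, differed by 0.01 (95% interval -0.20 to 0.22).

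DDX5, a coactivator of transcription that also takes part in microRNA processing, was the only fallen member among 4 of that role, where 14.2% of all genes fell. It read 11.18, 11.18 and 11.21 in FaDU shTP63 and 11.55, 11.47 and 11.47 in FaDU shControl arrays. The arrays of each group lay within a narrow band and the bands were apart (log2 difference -0.30, SE 0.0486, adjusted p 0.000491). Its paralogue DDX17 read 11.74, 11.60 and 11.61 in FaDU shTP63 and 11.73, 11.75 and 11.72 in FaDU shControl arrays, overlapping through knockdown replicate 1 (log2 difference -0.08, 95% interval -0.20 to 0.04, adjusted p 0.309). DHX9, which binds and unwinds RNA and RNA-DNA hybrids, differed by -0.05 (95% interval -0.20 to 0.09). DDX1, of the tRNA ligase complex, differed by 0.01 (95% interval -0.12 to 0.14).

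Neither member that rose in FaDU was on the nucleolar list. DDX6, which represses translation and promotes decapping in P-bodies, read 11.50, 11.50 and 11.57 in FaDU shTP63 arrays, against 11.36, 11.27 and 11.28 in FaDU shControl arrays. The groups were apart and the log2 difference was 0.22 (SE 0.0504, adjusted p 0.00547). DDX59, a member with no role listed here, read 7.29, 7.22 and 7.23 in FaDU shTP63 and 7.03, 6.93 and 7.03 in FaDU shControl arrays (log2 difference 0.25, adjusted p 0.032). The groups of DDX59 were apart, but leaving out any of the 6 FaDU arrays took its adjusted p above the threshold, up to 0.0967.

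Of the 6 members in translation, mRNA storage and decay, 1 rose, 1 fell and 4 did not pass in FaDU. These shares, 16.7% each, were near the 12.4% and 14.2% of all genes. DHX34, a factor of nonsense-mediated decay, was the one that fell, with 7.46, 7.50 and 7.54 in FaDU shTP63 and 7.71, 7.95 and 7.61 in FaDU shControl arrays (log2 difference -0.26, adjusted p 0.0303). Control replicate 2 of DHX34 stood above the other two, and without it the difference was -0.16. Without it, or without FaDU shTP63 replicate 1 or 2, the adjusted p rose above the threshold, up to 0.0992. With the 2 FaDU controls titled as new left out, the difference of DHX34 was -0.11. DDX3X, which helps ribosomes start on structured messages, read 11.22, 11.19 and 11.19 in FaDU shTP63 and 11.17, 11.17 and 11.14 in FaDU shControl arrays. These groups did not overlap, yet the log2 difference was 0.04 (95% interval -0.06 to 0.15, adjusted p 0.575). DHX29, a scanning factor, and DHX36, which unwinds G-quadruplexes, differed by 0.05 (95% interval -0.07 to 0.17) and -0.05 (95% interval -0.17 to 0.07).

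Among 20 other helicase cofactors 4 fell (20%) and 2 rose (10%) in FaDU, again near the 14.2% and 12.4% of all genes. PDCD4, an inhibitor that holds EIF4A away from the cap-binding complex, had 9.54 ± 0.0644 in FaDU shTP63 and 8.75 ± 0.0727 in FaDU shControl arrays (mean ± SD, n = 3 each), a log2 difference of 0.79 (adjusted p 1.74e-05). EIF4G1, the scaffold that activates EIF4A, had 9.80 ± 0.0586 in FaDU shTP63 and 10.26 ± 0.099 in FaDU shControl arrays, a log2 difference of -0.47 (adjusted p 9.23e-05). CASC3 and RBM8A, partners of EIF4A3 in the exon junction complex, fell by 0.34 (adjusted p 0.000493) and 0.30 (adjusted p 0.0027), and PATL1, a decapping partner of DDX6, rose by 0.17 (adjusted p 0.0229).

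RNA helicases with other symbols were read for comparison. Of 17 measured, 3 rose and 3 fell in FaDU (17.6% each), where 12.4% of all genes rose and 14.2% fell. EIF4A3 itself differed by 0.01 (adjusted p 0.901), and EIF4A2, a cap-dependent initiation helicase, by -0.30 (adjusted p 0.00892). SUPV3L1, of mitochondrial RNA decay, fell by 0.43 (adjusted p 0.00171) and SKIC2, the helicase of the exosome's SKI complex, by 0.41 (adjusted p 0.000293). The 3 that rose were RIGI, once named DDX58, by 0.35 (adjusted p 0.00249), ZNFX1 by 0.33 (adjusted p 0.00149) and HELZ2 by 0.17 (adjusted p 0.03).

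**Figure D4:**
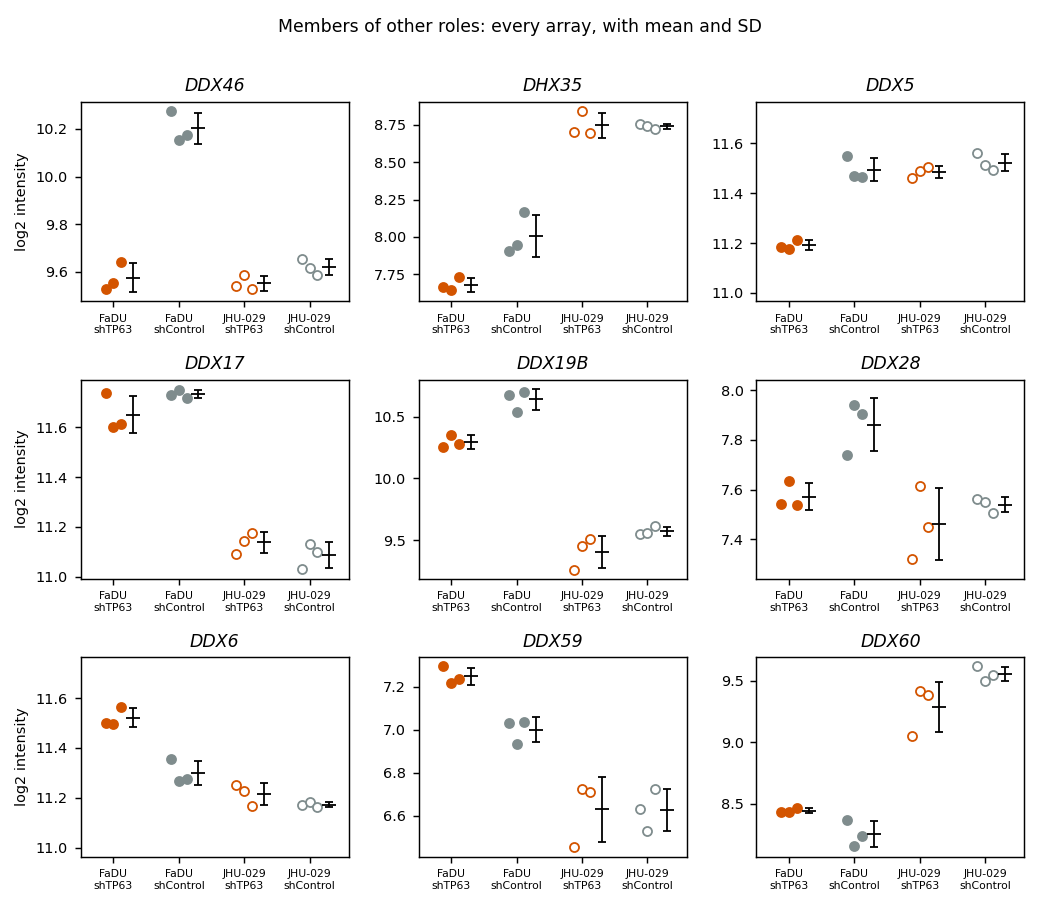
Log2 intensity of 9 helicase genes of other roles, every array as a point, with the mean and SD of 3 arrays beside each group. DDX46 lies between 9.53 and 9.64 in FaDU shTP63 arrays and between 10.15 and 10.28 in FaDU shControl arrays, and DDX60 is lower in FaDU than in JHU-029 under either shRNA.

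The 3 members of viral RNA sensing did not pass the threshold in either line, but DDX60 differed between the lines. DDX60, an interferon-induced helicase, read 8.43, 8.43 and 8.46 in FaDU shTP63 and 8.37, 8.15 and 8.23 in FaDU shControl arrays, and 9.05, 9.42 and 9.39 in JHU-029 shTP63 and 9.62, 9.50 and 9.55 in JHU-029 shControl arrays. In FaDU every knockdown array lay above every control (log2 difference 0.19, adjusted p 0.145), and in JHU-029 every knockdown array lay under every control (log2 difference -0.27, adjusted p 0.15). The difference between the effects, FaDU minus JHU-029, was 0.46 (SE 0.128, adjusted p 0.0313). It was lost, with adjusted p up to 0.0766, without any FaDU shTP63 array, FaDU shControl replicate 2 or 3, or JHU-029 shControl replicate 1 or 3.

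DDX60L, its neighbour and paralogue on chromosome 4, read 7.23, 7.16 and 7.31 in FaDU shTP63 and 7.69, 7.09 and 7.35 in FaDU shControl arrays, and 8.42, 8.71 and 8.67 in JHU-029 shTP63 and 8.53, 8.41 and 8.48 in JHU-029 shControl arrays. Its groups overlapped in both lines, with log2 differences of -0.14 (95% interval -0.42 to 0.13) in FaDU and 0.12 (95% interval -0.15 to 0.40) in JHU-029. DHX58, the regulator LGP2 of RIG-I-like receptors, read 6.99, 6.99 and 7.02 in FaDU shTP63 and 6.93, 6.72 and 6.95 in FaDU shControl arrays (log2 difference 0.13, adjusted p 0.173), apart by a small margin. In JHU-029 its difference was -0.09 (adjusted p 0.64).

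Of 15 other genes of RIG-I-like receptor signalling, 6 rose (40%) and 2 fell (13.3%) in FaDU, where 12.4% of all genes rose and 14.2% fell. In JHU-029 0 passed limma's threshold, where 3.15% of all genes did. An unadjusted p under 0.05 in limma's test was seen there for 3 of the 15, and for 2727 of all 18404 genes. IRF9, a subunit of the interferon-activated transcription factor, had 8.84 ± 0.0293 in FaDU shTP63 and 8.19 ± 0.0997 in FaDU shControl arrays (mean ± SD, n = 3 each), a log2 difference of 0.66 (adjusted p 0.000105). IFIT1, an interferon-induced RNA-binding protein, rose by 0.36 (adjusted p 0.0211) and STING1, the adaptor of DNA sensing, by 0.35 (adjusted p 0.00156). TRAF3, a signalling ligase, fell by 0.39 (adjusted p 0.000406) and TRIM25, a ligase that activates RIG-I, by 0.25 (adjusted p 0.00188).

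The same promoter windows were searched on both strands for the core of the interferon-stimulated response element, TTTC followed after any 2 bases by a second TTTC, whose matches on the opposite strand appear as a pair of GAAA. The motif was chosen with the results known. Windows of 3 of 45 members held it (6.67%), DDX60 and DDX60L with 2 matches each and DHX15, against 587 of 14228 genes tested (4.13%). Counted by window, 5.08% of the windows of members and 3.57% of all promoter windows held it. The windows of DDX60 (chr4:168318703-168319002, minus strand) and DDX60L (chr4:168480443-168480742, minus strand) are printed because the motif sits at like distances in both, with matches in capitals.
DDX60: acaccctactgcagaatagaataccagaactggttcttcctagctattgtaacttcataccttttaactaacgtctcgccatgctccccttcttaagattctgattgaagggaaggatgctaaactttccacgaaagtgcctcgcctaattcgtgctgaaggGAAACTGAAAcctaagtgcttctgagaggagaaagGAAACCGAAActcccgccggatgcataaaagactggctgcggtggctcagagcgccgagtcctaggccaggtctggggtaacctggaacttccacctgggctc
DDX60L: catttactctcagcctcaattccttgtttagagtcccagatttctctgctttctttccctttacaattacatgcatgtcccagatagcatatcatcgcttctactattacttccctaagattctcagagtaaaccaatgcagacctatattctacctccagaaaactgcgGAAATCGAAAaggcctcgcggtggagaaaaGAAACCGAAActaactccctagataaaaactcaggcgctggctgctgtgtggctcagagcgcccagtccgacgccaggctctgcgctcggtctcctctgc

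Of the 2 mitochondrial members, DDX28, which serves mitochondrial ribosome assembly, read 7.54, 7.63 and 7.54 in FaDU shTP63 and 7.74, 7.94 and 7.90 in FaDU shControl arrays. It fell by 0.29 (adjusted p 0.0133) without overlap, while DHX30, of the same process, differed by -0.03 (95% interval -0.15 to 0.09). The germline helicases DDX4, DDX43 and DDX53 sat on dim probe sets, with means under the median of all probe sets, as did DDX25, and their differences in FaDU lay between -0.12 and -0.05, with 95% intervals that include 0. Of the 4 members with no role listed, DHX40 fell by 0.29 (adjusted p 0.0445) with 8.44, 8.67 and 8.61 in FaDU shTP63 and 8.79, 8.75 and 9.05 in FaDU shControl arrays. Its groups were apart by a small margin, and the call was lost, with adjusted p up to 0.171, without any of 8 arrays: FaDU shTP63 replicate 1 or 3, FaDU shControl replicate 1 or 3, JHU-029 shTP63 replicate 3 or any JHU-029 shControl array. DHX32 and DHX57 differed by 0.14 (adjusted p 0.145) and 0.07 (adjusted p 0.577).

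In JHU-029 cells 0 of the 50 helicases passed limma's threshold after TP63 knockdown, where 3.15% of all genes did (1.8% higher, 1.35% lower). An unadjusted p under 0.05 in limma's test was seen for 6 of the 50, and for 2727 of all 18404 genes. The 3 knockdown arrays lay above the 3 controls for 5 members and under them for 9, where 13.3% and 11.7% of all genes did. The median log2 difference was -0.02 over the members, and the values ran from -0.27 for DDX60 to 0.22 for DDX1. DDX1 read 10.78, 10.89 and 10.90 in JHU-029 shTP63 and 10.58, 10.67 and 10.67 in JHU-029 shControl arrays, without overlap (adjusted p 0.0723). DHX34 read 7.60, 7.47 and 7.63 in JHU-029 shTP63 and 7.77, 7.86 and 7.81 in JHU-029 shControl arrays, also apart, with a log2 difference of -0.25 (adjusted p 0.133), close to its difference of -0.26 in FaDU. That FaDU difference was -0.11 without the 2 FaDU controls titled as new. The count became 1 in 5 alternatives, DDX1 in 3 of them, with a lowest adjusted p of 0.00702, and DHX34 in 2, one of which left out FaDU shControl replicate 2.

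The nucleolar members stayed near 0 in JHU-029, with a median log2 difference of -0.02 and 0 of 14 past the threshold. An unadjusted p under 0.05 in limma's test was also seen for 0 of the 14, and for 2727 of all 18404 genes. DDX21 read 10.42, 10.37 and 10.34 in JHU-029 shTP63 and 10.39, 10.52 and 10.44 in JHU-029 shControl arrays, overlapping (log2 difference -0.08, 95% interval -0.20 to 0.05). DDX10 read 8.49, 8.56 and 8.58 in JHU-029 shTP63 and 8.72, 8.68 and 8.65 in JHU-029 shControl arrays, and DDX31 read 8.13, 8.13 and 8.16 in JHU-029 shTP63 and 8.31, 8.21 and 8.28 in JHU-029 shControl arrays. These last 2 did not overlap, with log2 differences of -0.14 (95% interval -0.35 to 0.07) and -0.13 (95% interval -0.28 to 0.03). Over the 49 members the effects in the lines had a Pearson correlation of 0.293 and the same sign in 35. That correlation is across genes, which share arrays within each line and are not independent. An effect over 0.25 in size was seen for 16 members in FaDU and 1 in JHU-029. Neither this size nor the same sign was counted over all genes. Of all genes, 26.6% passed the threshold in FaDU and 3.15% in JHU-029.

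The difference between the knockdown effects, FaDU minus JHU-029, was tested in the same model. It passed the threshold for 11 of 50 members, 10 lower in FaDU and 1 higher, where 13.2% of all genes passed, 8.25% lower and 4.97% higher. Of the 14 nucleolar members 7 were among them. DDX46 had -0.56 (95% interval -0.73 to -0.39, adjusted p 0.000614), DDX51 -0.46 (95% interval -0.63 to -0.29, adjusted p 0.00251) and DDX55 -0.34 (95% interval -0.50 to -0.18, adjusted p 0.00957). DDX21 had -0.37 (adjusted p 0.00992) and DDX31 -0.37 (adjusted p 0.0257). DDX10, one of the larger falls in FaDU, did not pass, with -0.36 (95% interval -0.66 to -0.07, adjusted p 0.108).

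The other members that passed for the difference were DHX35 at -0.33 (adjusted p 0.0496), DHX37 at -0.32 (adjusted p 0.0351), DDX56 at -0.31 (adjusted p 0.0392), DDX54 at -0.27 (adjusted p 0.0412), DDX5 at -0.27 (adjusted p 0.0233) and DDX60, described above. DDX46, DDX51 and DDX55 passed in every alternative run, and DDX21 in each that left out 1 array. The call of DDX21 was lost with a fixed block for replicate number and without the 2 FaDU controls titled as new. The count of 11 was less stable. It was 4 without JHU-029 shControl replicate 3, 5 without JHU-029 shControl replicate 2 or JHU-029 shTP63 replicate 3, 6 without JHU-029 shControl replicate 1, replicate 3 of FaDU shControl, or replicate 2 or 3 of FaDU shTP63, and 7 without JHU-029 shTP63 replicate 1 or 2 or FaDU shTP63 replicate 1. DHX35 and DDX56 lost the call without any array other than FaDU shControl replicates 1 and 2 (adjusted p up to 0.123 and 0.0906), and DDX54 without any of 9 arrays, all but FaDU shTP63 replicate 1, FaDU shControl replicate 2 and JHU-029 shTP63 replicate 2 (up to 0.103).
DHX37 lost it without any JHU-029 shControl array, JHU-029 shTP63 replicate 1 or 3, FaDU shTP63 replicate 2 or 3 or FaDU shControl replicate 3 (up to 0.0836). DDX31 lost it without FaDU shTP63 replicate 1 or 2, FaDU shControl replicate 1, or replicate 2 or 3 of either JHU-029 group (up to 0.0704), and DDX5 without replicate 2 or 3 of either JHU-029 group (up to 0.0688).

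Under control shRNA the lines differed in most helicases. Of the 49 members with values shown, 31 were higher and 8 lower in FaDU than in JHU-029, where 63.8% of all genes passed, 33.4% higher and 30.4% lower. The median difference, FaDU minus JHU-029, was 0.31 over the members and 0.05 over all genes. DDX3X differed most, with 11.17, 11.17 and 11.14 in FaDU shControl arrays, against 9.49, 9.56 and 9.60 in JHU-029 shControl arrays (log2 difference 1.61, adjusted p 2e-11), a 3.05-fold difference.

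Of the 14 nucleolar members 10 were higher in FaDU and 1 lower, where 33.4% of all genes were higher and 30.4% lower. DDX55 was higher by 1.36 (adjusted p 1.56e-10), DDX24 by 1.19 (adjusted p 1.96e-10), DDX21 by 1.02 (adjusted p 4.52e-09) and DDX31 by 0.97 (adjusted p 5.01e-08). DDX56 went the other way, with 10.64, 10.74 and 10.91 in FaDU shControl arrays, against 11.43, 11.44 and 11.43 in JHU-029 shControl arrays (log2 difference -0.67, adjusted p 8.26e-07). A higher level in FaDU did not go with a fall in every case: DDX24, higher by 1.19, had a knockdown effect of 0.07, and DDX10, with a line difference of 0.13 (adjusted p 0.244), fell by 0.50. The line difference and the FaDU effect use the same FaDU shControl arrays with opposite sign, so they are not independent.

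Among members not on the nucleolar list, DDX39A was higher in FaDU by 1.22 (adjusted p 2.5e-09), DDX19B by 1.07 (adjusted p 2.4e-08), DHX30 by 0.82 (adjusted p 2.26e-08), DDX42 by 0.79 (adjusted p 2.08e-07) and DDX19A by 0.78 (adjusted p 1.11e-07). Lower in FaDU were DDX60 with -1.31 (adjusted p 3.67e-08) and DDX60L with -1.10 (adjusted p 5.09e-06), both antiviral helicases. DHX29 read 8.45, 8.37 and 8.45 in FaDU shControl arrays, against 9.78, 9.64 and 9.74 in JHU-029 shControl arrays (log2 difference -1.30, adjusted p 3.92e-10). DDX43 read 5.14, 5.37 and 4.89 in FaDU shControl arrays, against 6.55, 6.40 and 6.35 in JHU-029 shControl arrays (log2 difference -1.30, adjusted p 3.58e-07). DHX35, DHX57 and DDX20 were lower by smaller amounts, with -0.74, -0.56 and -0.51. Of the helicases of RNA sensing with other symbols, RIGI was lower in FaDU by a log2 difference of -2.91 (adjusted p 3.47e-12). The line difference of DDX6 (0.13, adjusted p 0.0422) and that of DHX58 (0.20, adjusted p 0.0186) were lost when single arrays were left out, 6 for DDX6 and 4 for DHX58.

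**Figure D5:**
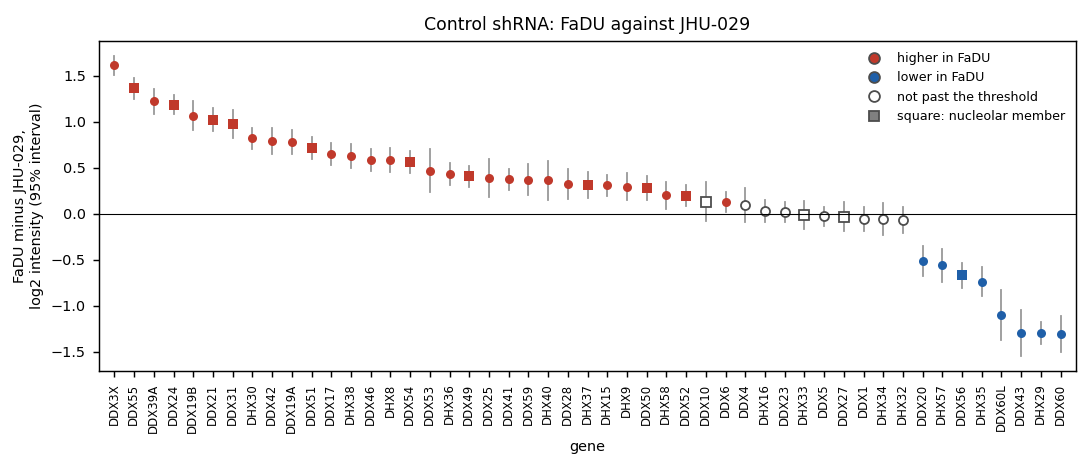
Difference of log2 intensity, FaDU minus JHU-029 under control shRNA, with its 95% interval, for 49 helicase genes in order of size. Squares are nucleolar members and open symbols did not pass the threshold; the values run from 1.61 for DDX3X to -1.31 for DDX60.

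Paralogues were compared within arrays by the difference of their log2 intensities, in 4 pairs and both lines, 8 comparisons chosen after the values were seen. With 3 arrays against 3 the 2-sided exact permutation test cannot go below p = 0.1. After Benjamini-Hochberg adjustment over the 8, the lowest adjusted p of this test was 0.16. DDX21 minus DDX50 was 1.71, 1.73 and 1.88 in FaDU shTP63 arrays, against 2.10, 2.28 and 2.21 in FaDU shControl arrays, a shift of -0.42 without overlap (exact p = 0.1). In JHU-029 the shift was -0.06 (exact p = 0.6). DDX5 minus DDX17 shifted by -0.22 in FaDU and by -0.09 in JHU-029, both without overlap (exact p = 0.1 each). DDX19B minus DDX19A shifted by -0.10 in FaDU (exact p = 0.2) and -0.16 in JHU-029 (exact p = 0.3), with overlap in both. DDX60 minus DDX60L was 1.20, 1.28 and 1.15 in FaDU shTP63 arrays, against 0.67, 1.06 and 0.88 in FaDU shControl arrays. In JHU-029 it was 0.63, 0.71 and 0.72 in shTP63 arrays, against 1.08, 1.10 and 1.07 in shControl arrays. These shifts, 0.34 in FaDU and -0.40 in JHU-029, ran in opposite directions without overlap in either line (exact p = 0.1 each), and their difference was not tested for the pair.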

How the data were processed

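Gene expression was read from 12 single-colour Affymetrix Human Gene arrays of FaDU and JHU-029 cells. The deposited values are linear intensity per probe set, for which the submitters' processing notes name RMA (robust multi-array averaging) and R 2.15.1 as what the authors used. RMA evens out the distributions of arrays, so values are relative to each array's distribution, and a change common to all genes would not be seen. No source used here gives the RMA implementation.

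Intensities were converted to log2. Of 32321 probe sets 19158 had 1 symbol, which left 18404 genes. All 50 members matched the reference by Entrez ID, and 8 probe sets with several symbols, including a DDX or DHX symbol, were left out. The FaDU titles number replicates differently from the descriptions, whose numbers 1 to 3 are used here. By these numbers, the 2 FaDU controls titled as new are replicates 1 and 2 of FaDU shControl. One model of the 4 groups was fitted with limma 3.58.1 in R 4.3.3 (residual degrees of freedom 8, prior degrees of freedom 4.17), 2-sided, with Benjamini-Hochberg adjustment over all genes within each contrast and a threshold of 0.05. The procedure was tested on simulated data. Array values have no counts behind them, so precision is limited by how many arrays there are.

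Members, role lists, companion lists and marker lists were chosen with earlier results of these data known. Named in the text are members past the threshold whose groups did not overlap, up to 12 per direction in FaDU and up to 10 in the other comparisons, a fixed set of well-known members, and up to 3 genes per direction from each companion list. Other members named were chosen after their values were seen. Alternatives were each array left out in turn, replicate blocks, other scalings, a filter on dim genes, other treatments of probe sets, a trend in the variance prior, log2(value + 16), the FaDU controls titled as new left out, and each line alone. The labels do not say whether same-numbered arrays were paired. Same-numbered arrays of a line had correlations of deviations from their group means between -0.34 and 0.01. With 3 arrays a group these deviations sum to 0, so the correlations cannot exclude pairing.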

Additional observations from a re-analysis of the deposited data

Results flagged for a closer look

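The knockdown effect differed between the lines, by a test of the difference itself in limma (FaDU effect minus JHU-029 effect, adjusted over all genes), for 11 helicases. Lower in FaDU among the nucleolar members were DDX51 by a log2 difference of -0.46 (SE 0.0794, adjusted p 0.00251), DDX31 at -0.37 (SE 0.0979, adjusted p 0.0257), DDX21 at -0.37 (SE 0.0804, adjusted p 0.00992), DDX55 at -0.34 (SE 0.0743, adjusted p 0.00957), DHX37 at -0.32 (SE 0.0894, adjusted p 0.0351), DDX56 at -0.31 (SE 0.0897, adjusted p 0.0392) and DDX54 at -0.27 (SE 0.079, adjusted p 0.0412). Among the others, DDX46 had -0.56 (SE 0.077, adjusted p 0.000614), DHX35 -0.33 (SE 0.102, adjusted p 0.0496) and DDX5 -0.27 (SE 0.0687, adjusted p 0.0233). DDX60 was the member whose effect was higher in FaDU, by 0.46 (SE 0.128, adjusted p 0.0313), with a positive value in FaDU and a negative one in JHU-029.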

How the results depend on the processing

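With other settings, 15 of the 21 helicases called in FaDU passed in all 24 alternatives; the exceptions were DDX19A, DDX41, DDX49, DDX59, DHX34 and DHX40. No value of a called member changed sign. In JHU-029 the count of called members, 0 with all arrays, was 1 with dim genes left out, with a trend in the variance prior, with log2(value + 16) and without the 2 FaDU controls titled as new, and 0 to 1 when 1 array was left out. The count over all genes there, 580, was 229 to 626 with 1 array left out, 903 with dim genes left out and 1015 with the trend. Called members for the difference between the lines, 11 in all, numbered 4 to 10 with 1 array left out, 7 with each array centred on its median or with quantile normalisation, and 6 without the FaDU controls titled as new. For nucleolar members called lower, 7 in all, the numbers were 3 to 7 with 1 array left out, and 4 with quantile normalisation or without those controls. No array correlated best with its own replicate number across groups. With the fixed replicate block the called members numbered 16 in FaDU, 0 in JHU-029 and 3 for the difference, of them 2 nucleolar, and all genes called numbered 172 in JHU-029 and 1395 for the difference. With the random replicate block the difference kept 7 members, 4 of them nucleolar. Both blocks lowered the number of members called in FaDU and for the difference, and the fixed block leaves 4 residual degrees of freedom. The random block, whose estimated correlation between same-numbered arrays of a line was -0.126, kept every call of the line difference under control shRNA. The cause of the other shifts was not tested.

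With 3 arrays a group, 1 array could end a FaDU call for DDX41, DDX49, DDX59, DHX34 and DHX40, whose log2 differences were -0.16, -0.17, 0.25, -0.26 and -0.29. In that order, the calls were lost in 13, 11, 10, 6 and 14 of 24 alternatives. DDX41, DDX49 and DHX40 were also lost with quantile normalisation, cyclic loess, either replicate block and the FaDU arrays alone. The fixed block gives no line difference under control shRNA. In that comparison DDX6 was lost in 10 of 22 alternatives, DHX58 in 7, and DDX25 and DDX52 in 1 each, and the others with values shown passed in all that could be run.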
